A study of Mus musculus with 6 samples.

Results

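Open chromatin at 28 genes that build cholesterol from acetyl-CoA, sense it or move it inside the cell was compared between tumour macrophages of bone marrow origin and microglia. The genes were listed by name and taken by symbol from the deposited peak annotation, in which 18755 genes carried peaks. They carried 107 of 92864 peaks, of which 53 were annotated as promoter (up to 3 kb from a start site) and 54 as distal. The median gene of the list had 3 peaks (range 1 to 10), 7 genes had a single peak, and the median over all genes was also 3. Peaks within 1 kb of a start site made up 40.2% of the peaks at these genes and 21.2% of all peaks, while introns held 16.8% and 32.7%. Stard4 had no promoter peak, and 10 genes (Acat2, Idi1, Lss, Cyp51, Tm7sf2, Nsdhl, Hsd17b7, Ebp, Dhcr7 and Srebf1) had no distal peak.

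The measurements were made by ATAC-seq, in which the Tn5 transposase inserts sequencing adapters into accessible DNA. Myeloid cells positive for CD11b and F4/80 were sorted into the BMDM group (3 libraries), which was CD45+ and high for CD49d, and the MG group (3 libraries), which was low for CD45 and low or negative for CD49d. Both gates left out cells with LY6G or with more than low LY6C. BMDM here names macrophages sorted from the tumour and not cells grown from marrow in culture. All 6 libraries came from WT mice bearing SB28 tumours, a mouse glioma line, placed in the brain, so both groups share the tumour, and the labels used here give no age and do not say whether libraries came from separate animals. The spread that the p-values rest on is that among the 3 libraries of a group, and it may be technical. In bulk libraries a larger share of cells with an open site and a more open site in each cell cannot be told apart.

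Reads in peaks numbered 4913267 to 19731950 in the BMDM libraries and 12538078 to 23608150 in the MG libraries. Values are normalized counts, scaled by the authors' size factors, and a count of 3 reads equals 1.64 (MG 2) to 5.95 (BMDM 1) normalized counts, a limit that covers counting error only. The summed peaks of 8 monocyte and macrophage marker genes held 4409 to 7268 normalized counts in BMDM and 2894 to 3229 in MG. Those of 10 microglia markers held 4879 to 6227 in BMDM and 7557 to 12370 in MG, so the sums of both lists ordered the groups as labelled. The median microglia marker, as a log2 deviation from its mean over libraries, stood at −0.17, −0.35 and −0.50 in BMDM 1, 2 and 3. It stood at 0.87, −0.18 and 0.14 in MG 1, 2 and 3, so by this measure MG 2 lay inside the BMDM range. Endothelial markers held 3562 to 5475 in BMDM and 4542 to 5215 in MG, neutrophil markers 1525 to 2455 in BMDM and 1204 to 1590 in MG, and T, NK and B cell markers 3770 to 6246 in BMDM and 3943 to 4994 in MG. Markers of neural and glial cells, which neither gate selects, held 5926 to 7314 in BMDM, and 7397, 15861 and 10273 in MG 1, 2 and 3.

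Cholesterol is assembled in the endoplasmic reticulum. The mevalonate pathway makes isoprenoid units, which are joined into squalene, closed into lanosterol and trimmed to cholesterol. When sterols are scarce, Scap escorts the SREBP factors (from Srebf1 and Srebf2) to the Golgi, where they are cut and released to switch on the genes of synthesis and uptake, and the Insig proteins hold Scap back when sterols are plentiful. Macrophages also take in cholesterol with the cells and myelin they engulf; Npc2 and Npc1 pass it out of the lysosome, Soat1 stores it as esters and Stard4 carries it between membranes. SREBP binds sterol regulatory elements beside the factors NF-Y, which binds CCAAT, and Sp1, which binds GC boxes.

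To show what lies under these promoter peaks, the 250 bases before the annotated start are printed for Hmgcs1 and Srebf2, whose promoters held a sterol element by letters, and for Insig1 and Npc2, whose flanking peaks are described further on. The sequences are RefSeq's (GRCm38.p6, the assembly behind mm10), read 5′ to 3′ on the gene's strand, and all lie inside a peak of the table: Hmgcs1 at chr13:119690101-119690350 (+), Srebf2 at chr15:82147019-82147268 (+), Insig1 at chr5:28071162-28071411 (+) and Npc2 at chr12:84773113-84773362 (−). Capitals mark sterol elements, CCAAT boxes, GC boxes and E-boxes found on either strand, whose letters and counts are given after the sequences.
Hmgcs1: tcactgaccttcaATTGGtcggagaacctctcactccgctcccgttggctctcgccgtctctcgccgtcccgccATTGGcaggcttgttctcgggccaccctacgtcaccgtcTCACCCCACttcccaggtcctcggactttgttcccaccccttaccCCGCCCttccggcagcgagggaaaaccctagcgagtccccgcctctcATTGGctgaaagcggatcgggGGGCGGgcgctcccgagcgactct
Srebf2: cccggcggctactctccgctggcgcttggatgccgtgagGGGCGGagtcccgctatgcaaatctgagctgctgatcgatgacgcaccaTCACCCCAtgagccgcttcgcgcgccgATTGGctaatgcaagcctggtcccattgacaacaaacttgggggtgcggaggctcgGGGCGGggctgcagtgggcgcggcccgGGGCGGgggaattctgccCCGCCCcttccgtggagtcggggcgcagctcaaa
Insig1: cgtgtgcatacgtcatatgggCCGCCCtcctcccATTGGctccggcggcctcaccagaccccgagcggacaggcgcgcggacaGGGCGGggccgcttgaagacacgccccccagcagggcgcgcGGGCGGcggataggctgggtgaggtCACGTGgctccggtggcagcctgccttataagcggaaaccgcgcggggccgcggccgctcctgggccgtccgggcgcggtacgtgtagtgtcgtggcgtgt
Npc2: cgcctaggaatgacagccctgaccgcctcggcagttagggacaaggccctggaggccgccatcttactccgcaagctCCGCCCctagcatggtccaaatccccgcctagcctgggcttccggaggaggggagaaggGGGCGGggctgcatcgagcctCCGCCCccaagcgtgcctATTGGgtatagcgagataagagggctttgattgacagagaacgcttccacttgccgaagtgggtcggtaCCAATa

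RefSeq windows of 300 bases (250 before and 50 after the start) were matched for 23 of the 28 genes, as 31 promoters, of which 29 overlapped a promoter peak. Both strands were searched. TCACNCCAC, a form of the sterol regulatory element, occurred in 1 of the 31 (Hmgcs1, first base 137 bases upstream of the start) and in 1.24% of all 32851 promoters. TCACCCCA, which overlaps it and was added after these sequences were seen, occurred in 2 of the 31 (Hmgcs1 again and Srebf2, 162 bases upstream) and in 1.56% of all. CCAAT occurred in 22 of the 31, in at least 1 promoter of 21 genes, against 37.4% of all promoters and 36.9% of those under a peak. GGGCGG occurred in 26 of the 31, against 35.7% of all and 64.6% of those under a peak, and the E-box CACGTG in 6, against 7.15% and 10.2%. Hmgcs1 held 3 CCAAT and 2 GC boxes around its sterol element, whereas Srebf2 held 1 CCAAT and 4 GC boxes. A match describes the letters and does not show binding.

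Promoters of the cholesterol genes were open in both cell types, and no difference between the groups passed the test. The strongest start-site peak of each of the 27 genes with a promoter peak overlapped a listed peak by at least 1 base in all 6 libraries' own peak calls. Of the strongest start-site peaks of all 12991 genes, 68.3% did so. The count for the 27 genes depended on the rule, and the share over all genes was found for the 1-base rule only. With an overlap of at least 50% of the peak, 19 of the 27 were in all 6 lists. With listed peaks of −log10 q of at least 10, 25 of the 27 were in all 6 lists. By the authors' fold enrichment the median of the 27 stood within the top 5.04% (BMDM 1) to 18.5% (MG 2) of a list, where the median over all genes stood within the top 28% to 54.3%, and no test was run on these ranks. Single genes ranked lower, with Srebf1 at the top 72.1% in BMDM 1 and Pmvk at the top 87.5% in BMDM 3. Per kb of promoter peak, Hmgcs1, which encodes HMG-CoA synthase, stood highest with a mean of 1218 normalized counts in BMDM and 1159 in MG. Ebp, a sterol isomerase, stood lowest among single-peak promoters, with 166.9 per kb in BMDM and 215.3 in MG.

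Differences were fitted with limma on log2(normalized count + 1) over 15249 genes' promoter sums, with Benjamini-Hochberg adjustment over all of them and a threshold of 0.05. The median gene differed by −0.31 (log2, BMDM minus MG), so differences are given relative to the median gene, while the p-values test the difference without that shift. Of 27 cholesterol genes 0 were higher in BMDM, where 2.75% of all promoters were, and 0 were higher in MG, where 9.16% of all promoters were. None passed an unadjusted p of 0.05 either (4.95% of all promoters did with BMDM higher and 18.1% with MG higher), the lowest adjusted p was 0.384 (Sqle), and limma with voom weights also called 0 and 0. The median relative difference of the 27 was 0.13, with 19 above and 8 below 0, and the members ranged from −0.22 to 0.64, inside the 5th to 95th percentile of all promoters (−1.02 to 1.14). The groups did not overlap at 0 genes with BMDM higher (5.36% of all promoters) and at 1 with MG higher (23.0% of all promoters), which was Insig2.

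**Figure D1:**
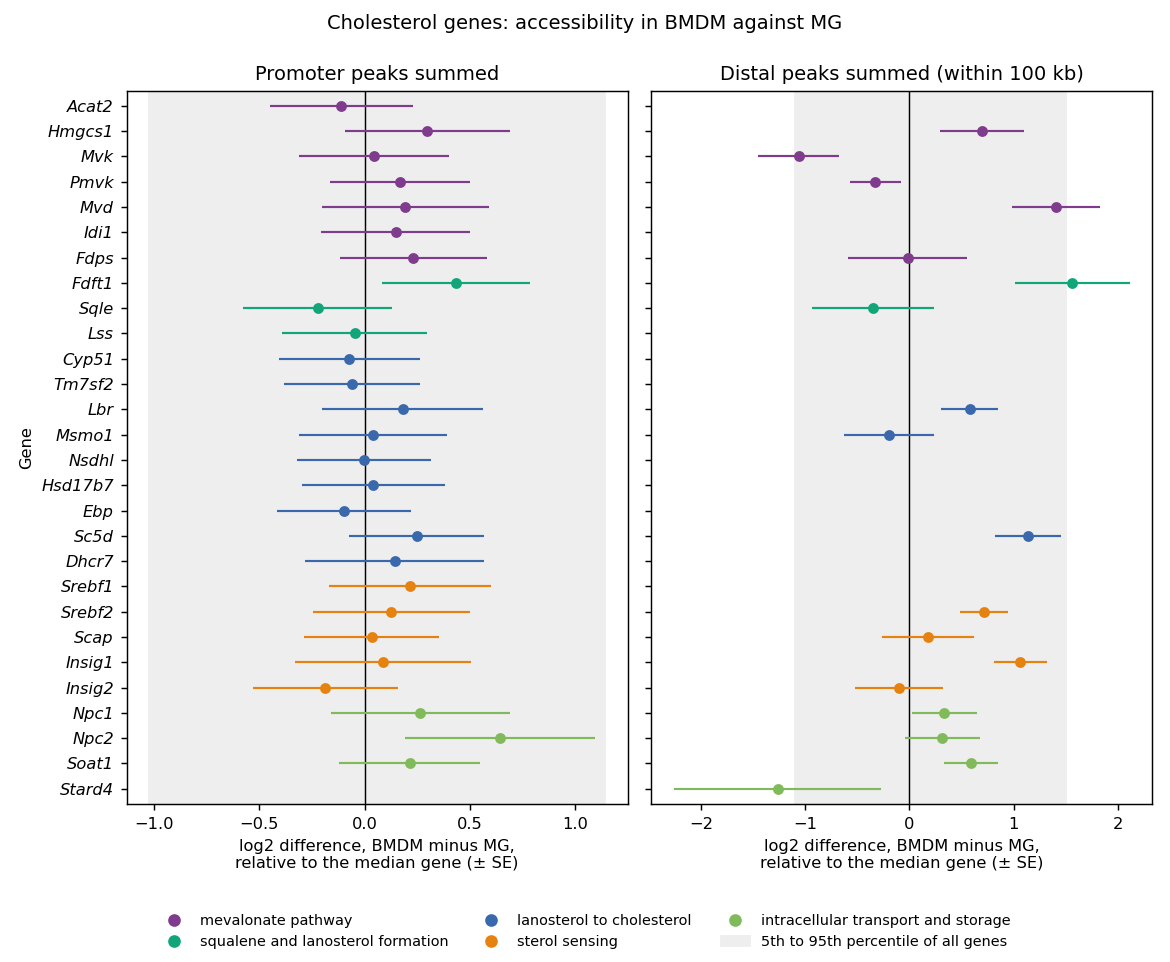
Log2 difference of summed promoter peaks (left) and summed distal peaks (right) for the 28 genes by role, BMDM minus MG and relative to the median gene; points are limma estimates, bars ± SE and grey bands the 5th to 95th percentile of all genes. Promoter points lie between −0.22 and 0.64, distal points between −1.27 and 1.56, and none passed an adjusted p of 0.05.

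In the mevalonate pathway, from the thiolase Acat2 through Hmgcs1 and the kinases Mvk and Pmvk to Fdps, the 7 promoters ranged from −0.11 to 0.30. Hmgcs1 held 2063, 1131 and 824.3 normalized counts in BMDM, against 1537, 1016 and 1270 in MG, a relative difference of 0.30 ± 0.39 (SE). Acat2 held 855.0, 661.1 and 396.7 in BMDM, against 942.4, 749.4 and 767.7 in MG (−0.11 ± 0.34). The groups overlapped at both genes, the lowest value at each was that of BMDM 3, and the relative difference was smaller than the standard error. Without the shift to the median gene, Acat2 differed by −0.42, more than the standard error of 0.34 (limma adjusted p = 0.488).

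In the squalene branch, Fdft1 (squalene synthase) and Sqle (squalene epoxidase) stood at opposite ends. Fdft1 held 1381, 799.7 and 608.7 in BMDM, against 1004, 664.1 and 783.3 in MG (0.43 ± 0.35). Sqle held 1113, 747.9 and 440.2 in BMDM, against 998.0, 1135 and 988.4 in MG (−0.22 ± 0.35). The groups overlapped at both, and Lss (lanosterol synthase) lay between them at −0.05. The 9 genes from lanosterol to cholesterol (Cyp51, Tm7sf2, Lbr, Msmo1, Nsdhl, Hsd17b7, Ebp, Sc5d and Dhcr7) had the narrowest spread, from −0.10 to 0.25. Ebp, the lowest of them, held 404.7, 319.9 and 193.8 in BMDM, against 336.4, 486.5 and 361.5 in MG.

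Among the sensors, Srebf1, Srebf2, Scap and Insig1 had relative promoter differences of 0.04 to 0.22, and Insig2 had −0.19 ± 0.34. Insig2 held 710.2, 698.0 and 478.3 in BMDM, against 1046, 768.5 and 834.8 in MG, so every BMDM library was below every MG library. Of the transport genes, Npc2, the lysosomal sterol carrier, had the largest value of the list, 0.64 ± 0.45, with 2976, 2300 and 1361 in BMDM, against 2094, 1432 and 1560 in MG. Npc1, the membrane protein that takes cholesterol from it, held 2164, 1680 and 1065 in BMDM, against 2239, 1235 and 1549 in MG (0.27 ± 0.43). The groups overlapped at both genes. With cyclic loess scaling in place of the size factors Npc2 passed (0.47, adjusted p = 0.0162).

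BMDM 3 was the lowest of the 6 libraries at 27 of 27 promoters, and at 60.1% of all promoters. BMDM 1 was the highest at 12, MG 1 at 12 and MG 2 at 3 (14.2%, 46.3% and 26.8% of all promoters). Once each library's median deviation was taken out, the median cholesterol promoter stood at 0.30, 0.01 and −0.14 in BMDM 1, 2 and 3, against 0.01, −0.13 and −0.05 in MG 1, 2 and 3 (log2). BMDM 1 alone was thus set apart from the other 5 libraries, which lay within 0.15 of 0.

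**Figure D2:**
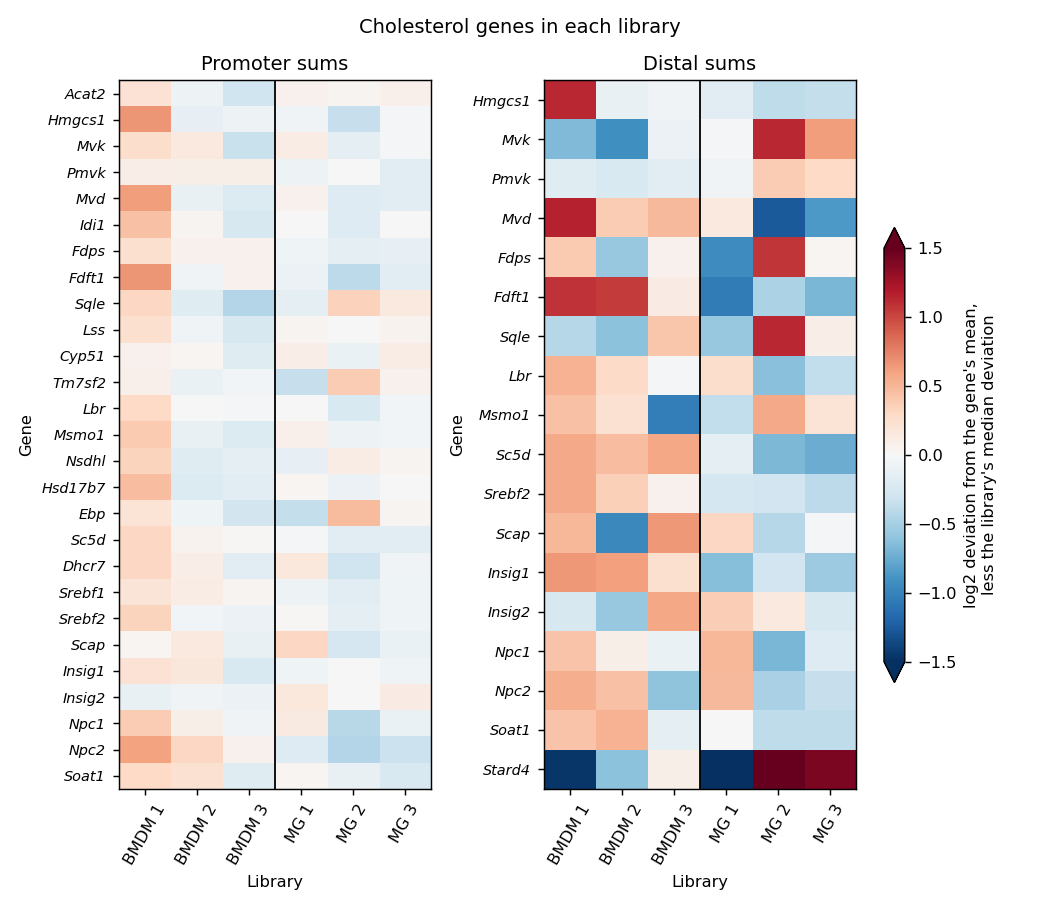
Log2 deviation of each gene from its mean over libraries, less the library's median deviation, at promoter sums (left, 27 genes) and distal sums (right, 18 genes), with BMDM libraries left of MG libraries and a colour scale cut at ±1.5. Promoters are mostly pale outside BMDM 1 (median 0.30), while distal sums of Stard4 and Mvk are highest in MG 2 and MG 3.

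Within genes the promoter peaks did not move as a block. The strongest start-site peaks of the 27 genes had a median relative difference of −0.13 (−0.21 over 12991 genes), and the other 25 promoter peaks tested a median of 0.44 (0.00 over 14260 peaks). Of the strongest start-site peaks, 0 were higher in BMDM without overlap (3.66% of all such peaks) and 3 were higher in MG (24.6%), at Lss, Insig2 and Soat1. Of the other promoter peaks, 8 were higher in BMDM without overlap (15.3%) and 1 in MG (13.9%). This split was made after the values were seen, and it is a description.

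Lss shows it within a single gene, chosen after its values were seen. Its start-site peak at chr10:76530944-76532086 held 668.5, 474.6 and 306.2 in BMDM, against 875.0, 719.9 and 729.8 in MG (−0.61 ± 0.35). The peak at chr10:76542703-76543285, 821 bp past another annotated start of the gene, held 200.4, 187.8 and 90.6 in BMDM, against 85.7, 62.3 and 62.2 in MG (1.24 ± 0.37). Every BMDM library was below every MG library at the start site (adjusted p = 0.222) and above every MG library at the downstream peak (adjusted p = 0.0979). Soat1, which esterifies cholesterol, held 297.6, 268.1 and 168.5 at its start site in BMDM, against 437.9, 330.2 and 344.0 in MG (−0.49 ± 0.32, adjusted p = 0.266).

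Distal peaks were summed per gene within 100 kb of the start site, which 18 of the 28 genes had, and tested over 13649 genes, whose median difference was −0.11. Of the 18 genes 0 were higher in BMDM (1.88% of all genes) and 0 higher in MG (0.571% of all genes), and voom weights called 0 and 0. At an unadjusted p under 0.05, 5 were higher in BMDM (12.9% of all genes) and 1 in MG (10.4% of all genes). The median relative difference was 0.33, with 11 above and 7 below 0. The groups did not overlap at 6 genes with BMDM higher (14.8% of all genes), namely Hmgcs1, Mvd, Fdft1, Sc5d, Srebf2 and Insig1, and at 1 with MG higher (13.7% of all genes), Pmvk.

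Insig1 came nearest to the threshold. Its 9 distal peaks summed to 470.1, 490.2 and 371.4 in BMDM, against 192.0, 283.7 and 213.8 in MG, a relative difference of 1.07 ± 0.25 with an adjusted p of 0.0756. Every BMDM library was above every MG library, whereas the Insig1 start-site peak held 1835, 1691 and 896.7 in BMDM, against 1858, 1587 and 1509 in MG. The distal sum passed in 5 of 15 other settings. Among these were library totals as the scale (adjusted p = 0.0452), cyclic loess (0.0263), and the fits without MG 1 (0.0486) and without MG 2 (0.0368). Over all settings its adjusted p reached 0.303. With voom weights, and without BMDM 1, BMDM 2 or MG 3, no distal sum of any gene passed.

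The other large positive values came from genes with few distal reads. Fdft1 had a single distal peak, in intron 3 of 6, with 27.8, 29.1 and 14.5 in BMDM, against 5.55, 10.4 and 7.78 in MG (1.56 ± 0.55, adjusted p = 0.160). Mvd, the decarboxylase that makes isopentenyl diphosphate, had a single distal peak with 93.2, 58.3 and 61.6 in BMDM, against 46.0, 19.7 and 23.3 in MG (1.41 ± 0.42, adjusted p = 0.117). Sc5d, the sterol desaturase, summed over 3 peaks to 73.4, 73.2 and 77.9 in BMDM, against 44.4, 35.5 and 30.1 in MG (1.14 ± 0.32, adjusted p = 0.105). The groups did not overlap at any of these 3 genes. Without MG 1, Mvd (adjusted p = 0.00924) and Sc5d (0.0432) passed. In that setting 1119 of all 13649 distal sums passed with BMDM higher and 1831 with MG higher, against 256 and 78 with all 6 libraries.

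On the negative side, Stard4 had a single peak within 100 kb, in a 3′ UTR, with 9.92, 20.1 and 32.6 in BMDM, against 7.93, 179.8 and 82.6 in MG (−1.27 ± 0.99, adjusted p = 0.434). MG 1 was the lowest of all 6 libraries there and MG 2 the highest, and without MG 1 the value was −2.51 with an adjusted p of 0.000497. Mvk summed over 4 peaks to 85.3, 76.4 and 134.1 in BMDM, against 133.3, 349.3 and 219.6 in MG (−1.06 ± 0.39, adjusted p = 0.122, and 0.0023 without MG 1). Without MG 1, 1831 of all 13649 distal sums passed with MG higher, against 78 with all 6 libraries. Sqle held 15.9, 14.9 and 30.8 in BMDM, against 14.3, 56.9 and 24.3 in MG (−0.35 ± 0.59). Pmvk summed over 4 peaks to 255.9, 265.5 and 269.9 in BMDM, against 280.8, 438.4 and 371.2 in MG (−0.33 ± 0.25, adjusted p = 0.323). Stard4, Mvk, Sqle and Pmvk, named for their negative values, were all highest in MG 2, the library with the highest neural and glial marker sum (15861). MG 2 was the highest library at 6 of the 18 genes and at 36.6% of all distal sums. The part of such neural and glial cells in these values was not tested.

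Peak by peak, 104 of the 107 were tested among 87944 peaks, whose median difference was −0.14. The 3 not tested, at Fdps, Insig1 and Insig2, had a mean normalized count under 10. At promoter peaks 1 of 52 was higher in BMDM (3.04% of all promoter peaks) and 0 in MG (2.64%), with groups apart at 8 (9.77%) and 4 (19.0%). At distal peaks 3 of 52 were higher in BMDM (6.36% of all distal peaks) and 1 in MG (1.04%), with groups apart at 17 (20.3%) and 3 (10.1%). The median relative difference was 0.02 at the promoter peaks (−0.14 over all) and 0.37 at the distal peaks (0.11 over all). The shares called were close to the background, so the result concerns the 5 positions and not the list. The 4 peaks higher in BMDM overlapped no listed peak of any MG library or of BMDM 3. In the BMDM 2 list they stood within the top 70.2% (Sc5d) to 97.3% (Npc2) by fold enrichment. A peak listed in 1 group only may have entered the table through that group, and its call is not independent of that. The Mvk peak was listed in BMDM 2 and in every MG library.

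**Figure D3:**
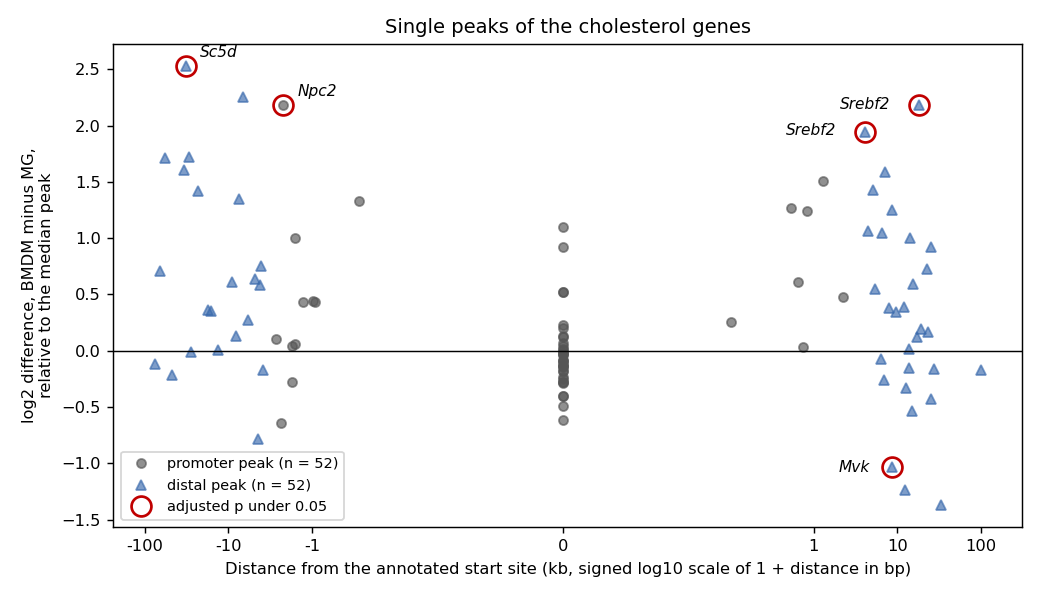
Log2 difference of each tested peak of the cholesterol genes (BMDM minus MG, relative to the median peak) against its signed distance from the annotated start (kb, log scale); circles are promoter peaks (n = 52), triangles distal peaks (n = 52) and red rings mark an adjusted p under 0.05. The 5 ringed peaks lie away from start sites, 4 above 0 and Mvk below.

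Srebf2, which encodes the SREBP factor most devoted to cholesterol synthesis, had both of the peaks with the lowest adjusted p, in intron 1 of 18. The peak at chr15:82166174-82166616 (mm10), 18149 bp past the start, held 91.3, 84.8 and 47.1 in BMDM, against 15.1, 14.8 and 20.4 in MG, a relative difference of 2.18 ± 0.39 with an adjusted p of 0.0268. The peak at chr15:82152127-82152361, 4102 bp past the start, held 136.9, 94.5 and 83.3 in BMDM, against 38.9, 33.9 and 17.5 in MG (1.95 ± 0.39, adjusted p = 0.0322). All BMDM libraries exceeded all MG libraries at both. Between them, peaks 8522, 15529 and 17164 bp past the start had 1.25, 0.59 and 0.13 and overlapping groups, and the start-site peak held 1307, 929.2 and 635.9 in BMDM, against 1326, 962.1 and 1021 in MG (−0.12 ± 0.36).

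At Npc2 the peak at chr12:84764749-84765064, at −2209 bp from an annotated start and in the promoter class, held 172.6, 309.5 and 126.8 in BMDM, against 24.6, 70.0 and 52.5 in MG (2.18 ± 0.46, adjusted p = 0.0341). The groups were apart there. A neighbouring peak over that same start, chr12:84762377-84763069, held 351.1, 477.2 and 237.3 in BMDM, against 226.9, 194.6 and 174.0 in MG (0.92 ± 0.33, adjusted p = 0.176), while the strongest start-site peak, which holds the printed sequence, had 0.20 ± 0.41 and overlapping groups.

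At Sc5d an intergenic peak at chr9:42296445-42296827, at −32189 bp from the start, held 45.6, 36.9 and 30.8 in BMDM, against 12.7, 3.83 and 4.86 in MG (2.53 ± 0.56, adjusted p = 0.0368). The MG 2 and MG 3 values were near the limit of 3 reads (1.64 and 2.92). At Mvk, mevalonate kinase, an intergenic peak at chr5:114461153-114461806, 8733 bp past an annotated start, was lower in BMDM, with 61.5, 48.6 and 54.4, against 109.5, 148.1 and 116.6 in MG (−1.03 ± 0.30, adjusted p = 0.0478). The groups were apart, MG 2 was the highest library there as it was for the neural and glial marker sum, and the part of such cells was not tested.

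**Figure D4:**
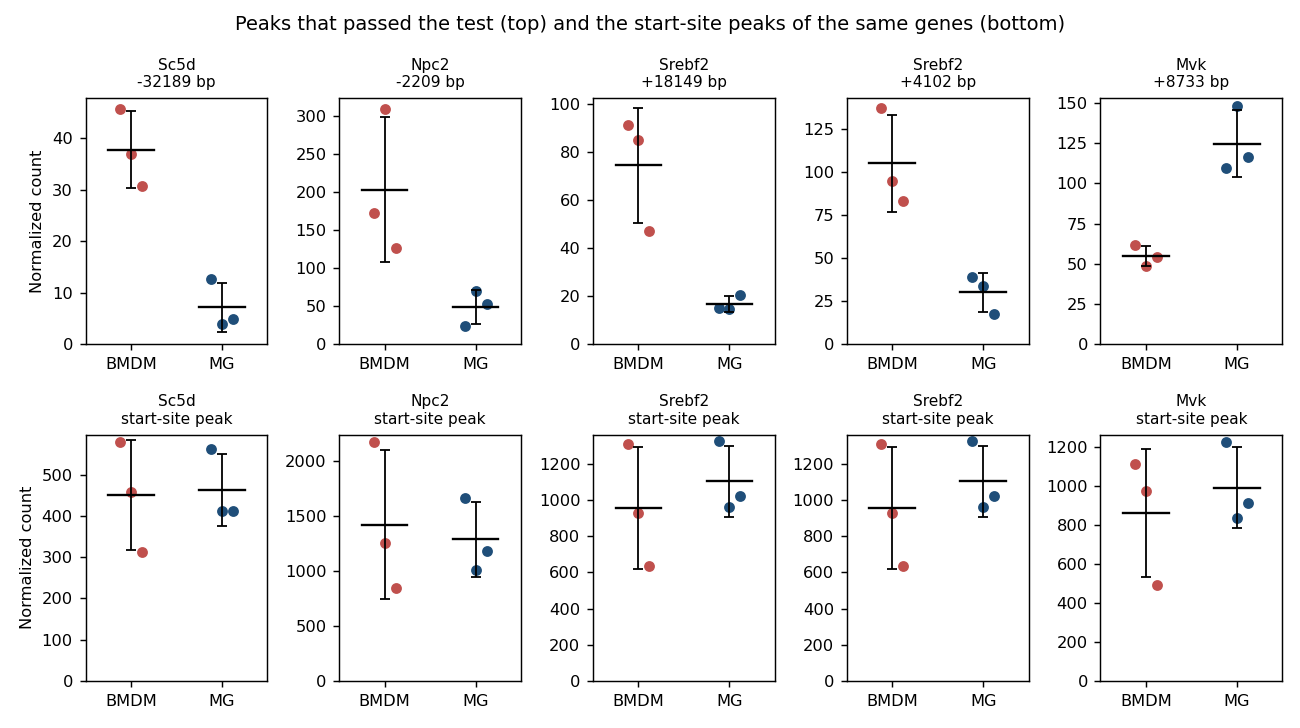
Normalized counts in every library at the 5 peaks that passed (top row, with the distance from the annotated start) and at the strongest start-site peak of the same gene (bottom row), BMDM left and MG right; dots are libraries, lines means, bars ± SD (n = 3 each), and each panel has its own scale from 0. Groups are apart in every top panel, for example 45.6, 36.9 and 30.8 in BMDM against 12.7, 3.83 and 4.86 in MG at Sc5d, and overlap in every bottom panel.

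The 5 calls depended on which libraries were kept. Without BMDM 1, BMDM 2 or MG 3 no peak of any gene passed, with 10502, 9148 and 9798 peaks higher in BMDM and 5360, 5658 and 4632 higher in MG at an unadjusted p under 0.05; with voom weights none passed either (13899 and 7149), and the 5 peaks had adjusted p of 0.0505 to 0.0645. Without MG 1, by contrast, 16 cholesterol peaks passed with BMDM higher (12.1% of all peaks) and 6 with MG higher (12.8% of all peaks). Without BMDM 3 the Srebf2 peak 18149 bp past the start passed (adjusted p = 0.0484) and the other 4 missed, and without MG 2 only the Mvk peak of the 5 missed (0.0861). The directions of the 5 peaks were kept in every setting run. The authors' deposited table, at its adjusted p under 0.05, had all 5 and in total 3 promoter peaks higher in BMDM and 0 in MG, and 6 distal peaks higher in BMDM and 1 in MG, against 4.97%, 7.11%, 10.8% and 4.63% of all peaks of those classes and directions.

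Insig1 had the next nearest peaks, named after their values were seen. The peak at chr5:28036835-28037884, at −33479 bp from the start, held 218.2, 202.0 and 99.6 in BMDM, against 52.4, 82.0 and 46.7 in MG (1.60 ± 0.39, adjusted p = 0.0512). The peak at chr5:28064047-28064598, at −6765 bp from the start, held 73.4, 53.1 and 36.2 in BMDM, against 3.97, 19.1 and 17.5 in MG (2.25 ± 0.58, adjusted p = 0.0575). The groups were apart at both, and in the authors' deposited table their adjusted p was 0.00895 and 0.0178.

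The libraries' own lists held 17741 (BMDM 3) to 52631 (BMDM 2) peaks in BMDM and 50217 (MG 1) to 70739 (MG 2) in MG, and covered 42 to 78 of the 107 cholesterol peaks in BMDM and 65 to 83 in MG. Of the 107, 41 overlapped a listed peak by at least 1 base in all 6 lists and 4 in none. With an overlap of at least 50% of the peak, 25 were in all 6 and 7 in none, and with listed peaks of −log10 q of at least 10 the counts were 35 and 22. Distal peaks of these genes were listed 18, 33 and 9 times of 54 in BMDM and 25, 40 and 26 times in MG, in the order of the libraries' numbers. The same counts were not made over all peaks, and the lists differ in length. They are a description and do not set the cholesterol genes apart from others.

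Neighbouring lipid genes gave a frame for these values. Of 18 genes of sterol transport, efflux and oxysterols (among them Abca1, Abcg1, the receptors Nr1h2 and Nr1h3, and Scarb1), 0 promoters were higher in either group (0 and 0 at an unadjusted p under 0.05). Of all promoters, 2.75% were higher in BMDM and 9.16% in MG (4.95% and 18.1% at the unadjusted threshold). Of 14 promoters of SREBP and reductase control and of isoprenoid branches, 0 were higher in BMDM and 1 in MG, against 2.75% and 9.16% of all promoters. The 1 was Mbtps2, a protease that releases SREBP in the Golgi. It held 226.1, 253.8 and 161.2 in BMDM, against 458.5, 404.0 and 366.4 in MG (−0.64 ± 0.32, adjusted p = 0.029). The groups did not overlap, as at 23% of all promoters with MG higher. Without the shift to the median gene, which is what the limma p-value tests, Mbtps2 differed by −0.95. Over all promoters, 1397 were called higher in MG with the size factors and 322 with median centring. The Mbtps2 promoter is 1 peak, and in the limma fit of single peaks no promoter peak of this list passed (lowest adjusted p = 0.0839).

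Fatty acid synthesis differed most among the lists, with 1 of 13 promoters higher in BMDM and 4 higher in MG, against 2.75% and 9.16% of all promoters. The elongase Elovl6 held 59.5, 74.5 and 39.9 in BMDM, against 7.14, 14.8 and 20.4 in MG (2.34 ± 0.58, adjusted p = 0.00718), and its groups were apart. The desaturase Fads2 held 150.8, 166.4 and 163.0 in BMDM, against 299.1, 612.2 and 470.4 in MG (−1.15 ± 0.32, adjusted p = 0.000222), Fads1 had −0.90 ± 0.32 (0.0031) and the malic enzyme Me1 −1.17 ± 0.40 (0.00384). The desaturase Scd1 held 79.4, 84.8 and 110.5 in BMDM, against 91.2, 759.8 and 378.0 in MG (−1.39 ± 0.34, adjusted p = 3.2e-05), with MG 1 inside the BMDM range. The promoters of Fads1, Me1 and Scd1 are 1 peak each, and none of these peaks passed in the fit of single peaks. Fads2, Me1 and Scd1 were highest in MG 2 and next in MG 3, as the neural and glial marker sum was, and the part of such cells was not tested. MG 2 was the highest library at 26.8% of all promoters.

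**Figure D5:**
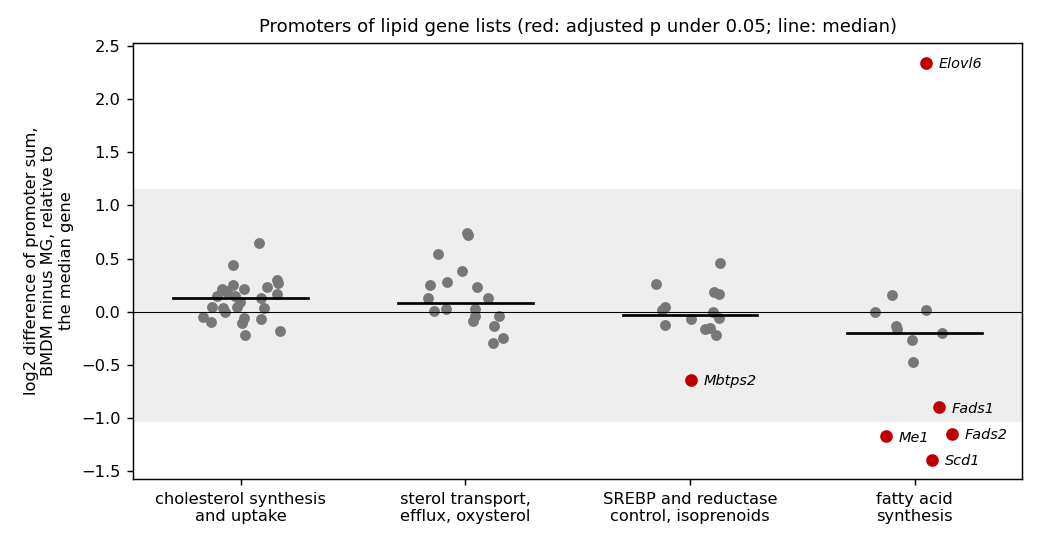
Relative log2 difference of promoter sums (BMDM minus MG) for the cholesterol genes and 3 other lists of lipid genes; each point is a gene, spread sideways for legibility, black lines are medians, the grey band is the 5th to 95th percentile of all genes and red marks an adjusted p under 0.05. Cholesterol promoters lie within −0.22 to 0.64 with none in red, and Elovl6, Fads1, Fads2, Scd1, Me1 and Mbtps2 are red.

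Distal sums of these lists had 0 calls in either direction among 16, 11 and 13 genes (at an unadjusted p under 0.05, 1, 2 and 2 were higher in BMDM and 1, 0 and 0 in MG). Of all distal sums, 1.88% were called higher in BMDM and 0.571% in MG (12.9% and 10.4% at the unadjusted threshold), so 0 calls do not set these lists apart. Single peaks passed at 9 of 195 positions of the sterol transport list, 8 higher in BMDM and 1 in MG, against 5.33% and 1.54% of all peaks, so these shares were not above the background. The efflux transporter Abcg1 had an intronic peak at chr17:31077511-31077911 with 47.6, 99.7 and 54.4 in BMDM, against 13.5, 18.6 and 10.7 in MG (2.25 ± 0.42, adjusted p = 0.0284). Gramd1b, an endoplasmic reticulum sterol transporter, was lower in BMDM at 1 of its 8 promoter peaks, with 162.7, 98.4 and 150.4, against 341.1, 750.5 and 460.6 in MG (−1.73 ± 0.37, adjusted p = 0.0282), and was higher in BMDM at 4 distal peaks. Its summed promoter peaks overlapped between the groups and did not pass (−0.30, adjusted p = 0.40). Of the SREBP and isoprenoid list 0 of 54 peaks passed (7 and 2 at an unadjusted p under 0.05, against 15.3% and 9.58% of all peaks). Of fatty acid synthesis 5 of 74 were higher in BMDM and 1, the Fads2 promoter, in MG. These shares were near the background of 5.33% and 1.54% of all peaks.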

How the data were processed

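The 6 ATAC-seq libraries (3 BMDM, 3 MG) were grouped by their labels. The submitters' processing notes name DESeq2 1.36.0, ChIPseeker 1.32.1, MACS2 2.1.1.20160309, Bowtie2 2.4.1, cutadapt 1.8.1 and the build mm10. How duplicates were handled, whether reads were shifted for Tn5, and the tools' settings: not given in the sources used here. PCR reads are not independent molecules.

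The authors deposited a table over all peaks whose library columns are log2 values, variance-stabilized, with log2 fold changes, a mean normalized signal, p-values and adjusted p-values per peak. The authors' deposited peak lists, made per library, give each peak a score, a fold enrichment, a −log10 p and a −log10 q, and served to describe and rank peaks inside each list. No sample matched a further 8 columns of per-sample values, which were left out. The table's 93084 lines included 155 that repeated a peak and 65 without annotation, leaving 92864 peaks. A peak belongs to the gene with the nearest annotated start, which does not show what it regulates.

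Inverting the stabilization gave normalized counts within 2.4e-06 of the deposited means, and the authors' size factors turned at least 99.9989% of peak values into whole reads (tolerance 0.02 read). Since the deposited values are normalized, limma 3.58.1 (R 4.3.3) with a trend was fitted to log2(normalized count + 1), which understates changes of low features. The fit used all 6 libraries and features with a mean of at least 10, with Benjamini-Hochberg adjusted p under 0.05, for promoter sums, distal sums within 100 kb and single peaks. It was tested on simulated data. At promoters the variance shared across genes took nearly all the weight, so those p-values hardly use a promoter's own spread.

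The 28 genes, the other lists and the naming rule were chosen with earlier results of these data known. Values in every library are given for genes with a passing sum or peak and for the 4 genes with the largest relative difference each way at promoters and at distal sums; of other lists, at most 6 passing genes are named. The markers Fn1, Chil3, Aqp4, Elane, Cd3g and Cd79a, and the genes Ggps1 and Faxdc2, had no promoter peak and no distal peak within 100 kb, and so no value. Alternatives were other scalings, a pseudocount of 5, no filter, voom weights, robust moderation, a replicate block, other peak windows, stabilized values and leaving out each library.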

Additional observations from a re-analysis of the deposited data

How the results depend on the processing

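With all 6 libraries and the authors' scaling, 419 promoter sums were higher in BMDM and 1397 in MG, 256 and 78 distal sums, and 4687 and 1352 peaks. Library totals gave 574 promoters higher in MG, 757 and 48 distal sums with 1 cholesterol gene (Insig1) higher in BMDM, and 7032 peaks higher in BMDM with 10 and 0 cholesterol peaks. Cyclic loess gave 752 and 461 promoters with 1 cholesterol gene (Npc2), 836 and 269 distal sums with 1 (Insig1), and 2305 peaks higher in MG with 7 and 2 cholesterol peaks. Median centring gave 322 promoters higher in MG, and 473 and 122 distal sums. Voom weights gave 633 promoters higher in MG, 0 and 0 distal sums, and 0 and 0 peaks, with 0 and 0 cholesterol peaks. Distal peaks at any distance gave 138 and 42. The deposited stabilized values gave 0 cholesterol peaks higher in MG, where the Mvk peak had an adjusted p of 0.0501. The Mvk peak also missed with library totals (0.0842), and the Sc5d peak with cyclic loess (0.0682). A pseudocount of 5, no filter, robust moderation and the 1 kb promoter window kept every count within 1.5 times. Scaling set the median promoter difference, which was −0.12 with library totals, −0.01 with cyclic loess and 0.00 with median centring.

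Leaving out each library gave 154 to 503 promoters higher in BMDM and 496 to 1846 in MG, with 0 to 0 cholesterol genes either way. It gave 0 to 1119 and 0 to 1831 distal sums, with 0 to 3 and 0 to 2 cholesterol genes, and 0 to 10603 and 0 to 11278 peaks, with 0 to 16 and 0 to 6 cholesterol peaks. The relative difference took both signs over the settings run at 16 of 27 promoters, 5 of 18 distal sums and 44 of 104 single peaks. Among the genes named for the size of their difference these were the promoters of Ebp (0.0357 with cyclic loess, −0.31 to 0.11 over the libraries left out) and Acat2 (−0.23 to 0.0083) and the distal sum of Sqle (−0.78 to 0.069). The cause of these moves was not tested.

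Same-numbered libraries deviated together in pairs 1 and 3 but not in pair 2 (correlations across promoters of 0.524, −0.151 and 0.431). Differently numbered libraries did so too, at 0.525 for BMDM 3 with MG 2 and 0.201 for BMDM 2 with MG 1. The other such pairs stood at −0.573 to −0.241. The libraries' numbers were not used to pair the samples in the main fit. Deviations from a mean of 3 libraries are tied to each other, so these correlations cannot settle whether same-numbered libraries belong together. With a replicate block, 887 and 509 distal sums were called with 1 cholesterol gene (Insig1, adjusted p = 0.0353), and 9212 and 5215 peaks with 13 and 2 cholesterol peaks, while promoters kept 0 and 0. The lowest depth, 4913267 reads in BMDM 3, limits what low peaks can show.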
